A study of Mus musculus with 20 samples.

Results

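Glutathione transferases, UDP-glucuronosyltransferases and sulfotransferases are the conjugating enzymes of the liver. They were taken as all genes whose symbol begins with Gsta, Gstm, Gstp, Gstt, Gstk, Gsto, Mgst, Ugt1, Ugt2, Ugt3 or Sult, leaving out Ugt2b38, Sult1e1 and Sult3a1. Each gene was read from the brightest probe set that is annotated to it alone. This gave 42 genes of 18193 on the array, namely 22 glutathione transferases, 9 UDP-glucuronosyltransferases and 11 sulfotransferases. A filter on low signals kept 36 of them, with 20 glutathione transferases, all 9 UDP-glucuronosyltransferases and 7 sulfotransferases. Gstt4, Mgst2, Sult1c1, Sult2b1, Sult4a1 and Sult6b1 did not pass and were not tested. No Ugt1 gene has a probe set of its own here.

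Liver RNA came from male BALB/c mice, bought at 6 weeks of age, with 1 array per mouse and 5 arrays from each group of 6 mice. Mice were made diabetic with a single intraperitoneal dose of 185 mg/kg streptozotocin (STZ), which destroys pancreatic beta cells, and those with non-fasting glucose of 330 to 590 mg/dL were used. They were then fed AIN93G diet alone (STZ), or AIN93G with 0.1% or 0.5% phloridzin, for 14 days. Phloridzin is a plant glucoside that inhibits sodium-glucose cotransporters. The untreated mice ate AIN93G for 14 days and received no injection. STZ itself, its injection and the diabetes therefore cannot be told apart, and all 3 diabetic groups share them. Mice were housed 3 per cage, and the cages are not given per mouse.

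The values are linear signals. Median signals per array lay between 11.2 and 17.1, and a mean signal at or below 17.1 is taken here as not above background. Folds are of the signal plus 16, and differences are in log2 units of that sum. A gene is called where limma's adjusted p, over all 12947 genes tested, was under 0.05. STZ replicate 1 stood apart from the other STZ arrays (Cyp4a14 at 6.02 log2 units, against 11.41 to 12.52), and results that rest on it are also given without it. Replicate 4 of the 0.1% phloridzin group had the highest single signal of any array, 37014, against at most 20257 on the others. All 7 hepatocyte markers on the array were above background in every group, and 0 of them were called in STZ against untreated liver, or at 0.5% phloridzin against untreated liver. RNA was from whole tissue, in which fewer cells of a type and less RNA per cell cannot be told apart.

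Conjugation makes foreign compounds, steroids, bile acids and reactive products water soluble so that transporters can remove them. Glutathione transferases add glutathione to electrophiles, UDP-glucuronosyltransferases add glucuronic acid from UDP-glucuronate, and sulfotransferases add sulfate from the donor PAPS (3'-phosphoadenosine 5'-phosphosulfate). Many of these genes respond to the receptors PXR, CAR and AHR and to the factor NRF2, and several differ between male and female mouse liver. Phloretin, the aglycone of phloridzin, is itself conjugated with glucuronate and sulfate.

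Promoter windows of 250 bases before to 50 bases after the annotated start were found for 37 of the 42 genes in RefSeq (GRCm38.p6). Gsta4, Gstt2, Sult2a2, Sult4a1 and Ugt3a2 had no entry. Gsta2 and Sult5a1 are shown because they had the largest rise and the largest fall in STZ liver, and Gstk1 because its window was the only one of a risen gene to hold a searched motif. Capitals mark the 50 bases from the annotated start in Gsta2 (chr9:78347096-78347395, minus strand) and Sult5a1 (chr8:123158231-123158530, minus strand). In Gstk1 (chr6:42245685-42245984, plus strand) they mark a nuclear receptor half-site.
Gsta2: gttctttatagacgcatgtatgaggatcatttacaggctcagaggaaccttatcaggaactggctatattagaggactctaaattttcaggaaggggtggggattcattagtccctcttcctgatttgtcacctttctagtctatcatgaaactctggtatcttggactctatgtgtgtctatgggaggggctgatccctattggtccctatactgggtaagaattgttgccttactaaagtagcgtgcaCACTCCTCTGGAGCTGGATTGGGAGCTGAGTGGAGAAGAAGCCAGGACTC
Sult5a1: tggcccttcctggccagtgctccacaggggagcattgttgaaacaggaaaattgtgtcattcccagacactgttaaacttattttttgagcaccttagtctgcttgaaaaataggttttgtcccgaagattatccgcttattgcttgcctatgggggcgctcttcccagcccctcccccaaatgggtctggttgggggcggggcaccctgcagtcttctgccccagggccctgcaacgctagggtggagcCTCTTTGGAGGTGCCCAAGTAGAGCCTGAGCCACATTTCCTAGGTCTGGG
Gstk1: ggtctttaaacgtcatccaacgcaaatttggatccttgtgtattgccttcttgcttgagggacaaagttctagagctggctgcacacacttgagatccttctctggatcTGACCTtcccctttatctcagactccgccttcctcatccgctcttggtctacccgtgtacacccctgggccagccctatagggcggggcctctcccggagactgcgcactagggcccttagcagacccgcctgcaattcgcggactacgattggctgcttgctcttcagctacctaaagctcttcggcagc

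Windows were searched on both strands for the core of the antioxidant response element (TGACNNNGC), bound by NRF2, for the nuclear receptor half-site (AGGTCA) and for the STAT5 site (TTCNNNGAA). A half-site read on the other strand can share its first letters with the antioxidant core. Of all 32851 mouse promoter windows, 12.4% held the first, 16.3% the second and 8.3% the third. Among the 8 risen genes with a window, 0 held the antioxidant core, 1 the half-site (Gstk1) and 0 the STAT5 site. Among the 5 fallen genes the STAT5 site alone was found, in Gstm6. Of the 19 genes that were tested and not called, 4 held the antioxidant core (Gsta3, Gstm5, Gstm7 and Mgst1), 7 the half-site and 1 the STAT5 site. A match describes the letters of the window and nothing more.

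STZ against untreated liver asks how these enzymes differed between STZ-treated diabetic mice and untreated mice. Of 36 genes tested, 11 rose and 5 fell in STZ liver, 44.4% in all. Over all genes tested, 13.8% were called, 6.9% higher and 6.89% lower. For 15 of the 36 genes no STZ array lay within the untreated range or the reverse, against 12.9% of all genes. An unadjusted p under 0.05 was found for 18 of the 36 genes, against 28.4% of all genes. The median difference was 0.05 log2 units over the 36 genes and −0.05 over all genes. Sult2a2 passed the filter through its STZ groups, so its call had to be a rise. It is nevertheless included in the 11 genes and in the 44.4%. The classes gave unlike counts, and the difference between classes was not tested. Among glutathione transferases 8 of 20 rose and 2 fell, with a median of 0.09. Among sulfotransferases 3 of 7 rose, counting Sult2a2, and 1 fell, with a median of 0.39 that also includes Sult2a2. Among UDP-glucuronosyltransferases 0 of 9 rose and 2 fell, with a median of −0.10. That class count holds no Ugt1 gene. Probe sets shared by 8 Ugt1a genes were read apart, and were 0.29, 0.32 and 0.11 log2 units higher in STZ liver. Their p values, by exact permutation test and adjusted over the shared probe sets, were 0.0198, 0.0265 and 0.238.

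**Figure D1:**
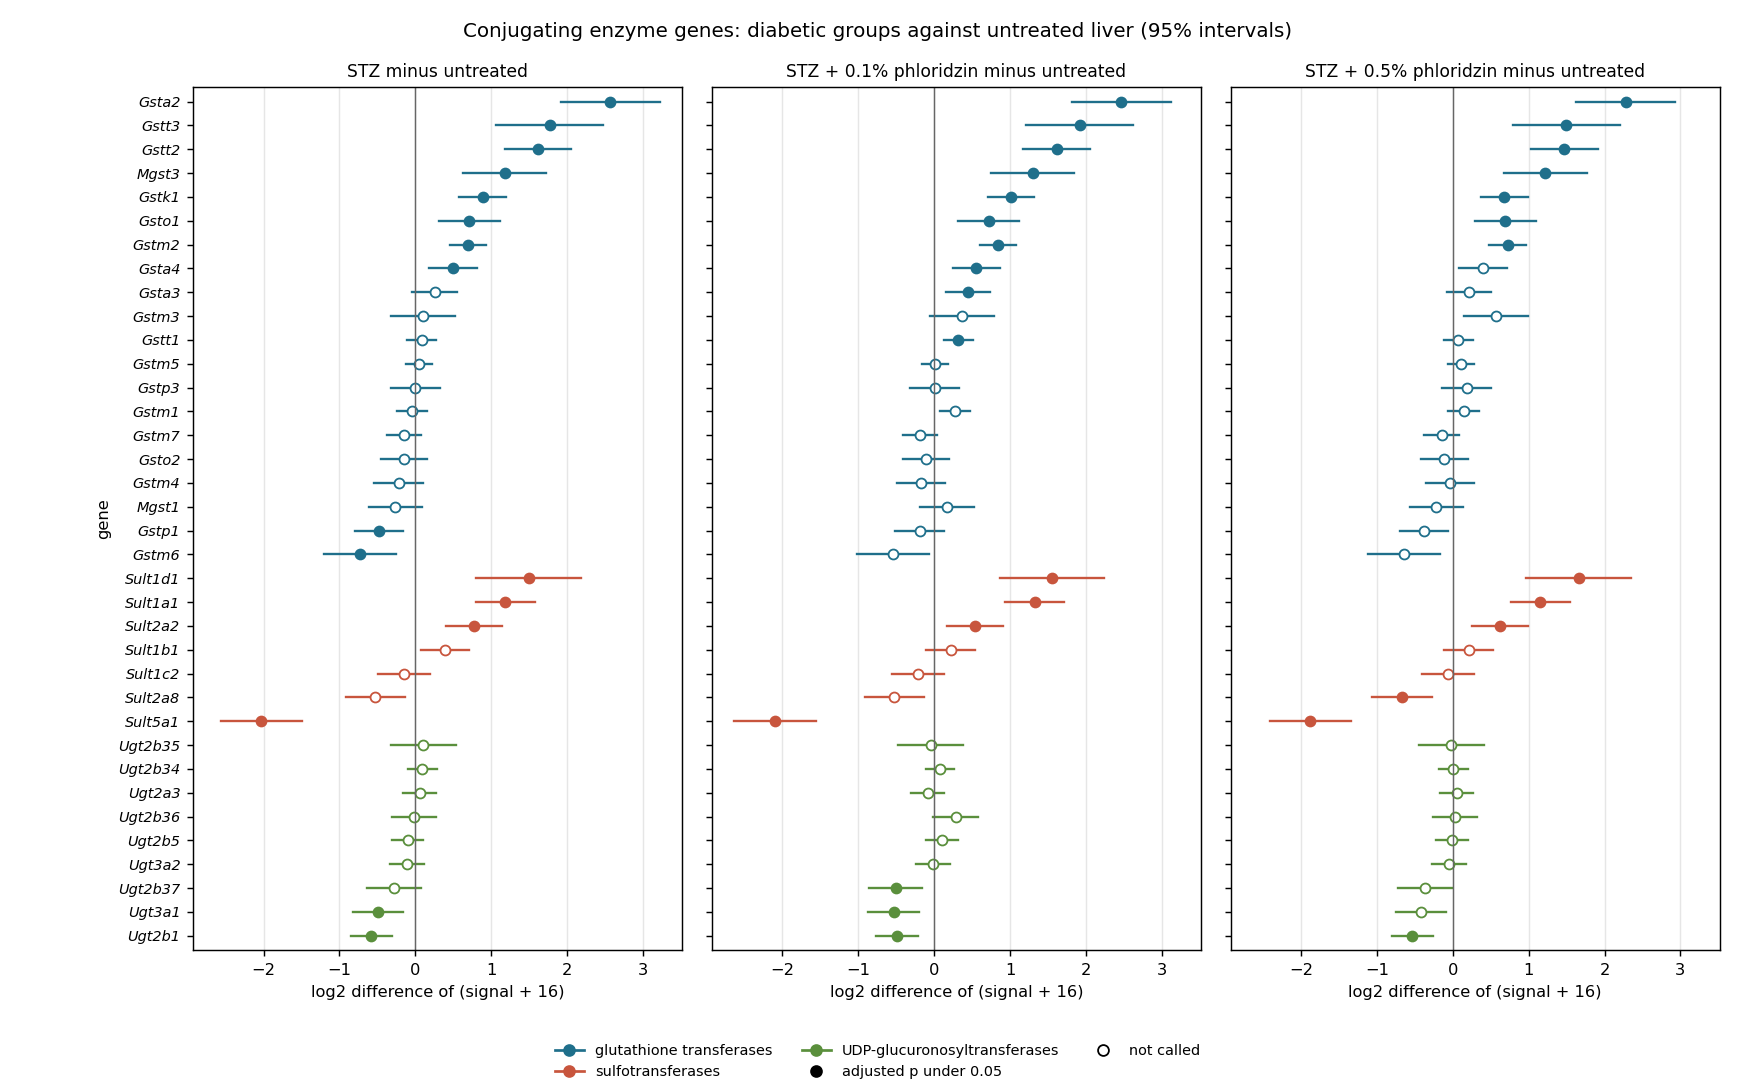
Difference of each of the 36 genes in log2 units of signal plus 16 (horizontal) for STZ, STZ plus 0.1% phloridzin and STZ plus 0.5% phloridzin, each minus untreated liver. Points are limma estimates coloured by enzyme class, lines 95% intervals, and filled points have an adjusted p under 0.05. Gsta2 lies highest, at 2.57, 2.47 and 2.28, and Sult5a1 lowest, at −2.03, −2.10 and −1.88.

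In the alpha class, Gsta2 and Gsta4 rose and Gsta3 was not called. Gsta2, a cytosolic enzyme that conjugates electrophiles and reduces lipid hydroperoxides, had signals of 909, 2485, 2019, 2019 and 1749 on the STZ arrays, against 191, 262, 338, 293 and 345 on the untreated arrays. Every STZ array was above every untreated one, and STZ replicate 1 was the lowest of its group. The signal was 5.94-fold higher in STZ liver (2.57 ± 0.31 log2 units, SE, n = 5 per group, limma adjusted p = 2.45e-05), and 6.98-fold without STZ replicate 1. A further probe set shared by Gsta1, Gsta2 and Gm3776 averaged 1300 ± 345 in STZ liver and 229 ± 48.4 in untreated liver (SD, n = 5 each). These paralogs are near copies, so part of the Gsta2 signal may come from them. Gsta4, which conjugates the lipid peroxidation product 4-hydroxynonenal, averaged 1457 ± 206 in STZ liver and 1018 ± 74.9 in untreated liver, a difference of 0.50 ± 0.15 (adjusted p = 0.0313). That call was lost when untreated replicate 1, 2 or 3, or STZ replicate 2, 3, 4 or 5, was left out. Gsta3, which in mice detoxifies aflatoxin epoxide, averaged 5379 ± 188 in STZ liver and 4555 ± 729 in untreated liver (0.25, 95% interval −0.04 to 0.55).

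In the theta class, whose enzymes act on small halogenated compounds and sulfate esters, Gstt2 and Gstt3 rose. The genes Gstt3, Gstt1, Gstt4 and Gstt2 lie next to each other on chromosome 10 in that order, with no coding gene between. Gstt2 had signals of 1146, 1628, 1650, 2041 and 1765 in STZ liver, against 509, 489, 470, 626 and 509 in untreated liver. The groups did not overlap, and the fold was 3.06 (1.61 ± 0.21, adjusted p = 4.44e-05). Gstt3 had signals of 327, 1307, 987, 835 and 886 in STZ liver, against 197, 211, 203, 303 and 207 in untreated liver. STZ replicate 1, at 327, came close to the highest untreated array, at 303, and the other STZ arrays lay far above. The fold was 3.41 (1.77 ± 0.34, adjusted p = 0.00173), and 4.23 without STZ replicate 1. Gstt1, between them on the chromosome, averaged 3101 ± 193 in STZ liver and 2933 ± 229 in untreated liver, and its interval was −0.11 to 0.27. Gstt4 gave signals of 0.223 to 12.6 in STZ liver and 1.99 to 12.2 in untreated liver, none above background.

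Of the membrane-bound and organelle enzymes, Mgst3 and Gstk1 rose and Mgst1 was not called. Mgst3, a membrane enzyme with glutathione transferase and peroxidase activity, had signals of 172, 360, 322, 304 and 402 in STZ liver, against 95.8, 133, 128, 140 and 127 in untreated liver. The groups did not overlap, and Mgst3 was 2.27-fold higher (1.18 ± 0.26, adjusted p = 0.00542). A second probe set of Mgst3 was at background in both groups, at 7.09 in STZ liver and 7.99 in untreated liver, and with the mean of both probe sets the difference was 0.55 and not called (adjusted p = 0.0521). Mgst1, the abundant microsomal enzyme, had signals of 9439 to 12718 in STZ liver and 12817 to 14739 in untreated liver. These ranges did not overlap, yet the gene was not called (−0.26, interval −0.62 to 0.09, adjusted p = 0.327). Gstk1, found in mitochondria and peroxisomes, had signals of 1879, 2597, 2761, 3151 and 3009 in STZ liver, against 1296, 1530, 1344, 1585 and 1362 in untreated liver. It was 1.85-fold higher (0.89 ± 0.15, adjusted p = 0.000556), with no overlap.

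The omega enzyme Gsto1, a thioltransferase and dehydroascorbate reductase, averaged 1092 ± 210 in STZ liver and 650 ± 34 in untreated liver (0.71 ± 0.19, adjusted p = 0.0179). Its ranges did not overlap. A second probe set of Gsto1 gave a similar difference, 0.66, with overlapping groups, and with the mean of both the adjusted p was 0.0782. Without STZ replicate 5 the call was also lost (adjusted p = 0.0551). Its neighbour Gsto2 was not above background in any group (12.8 in STZ liver and 15.4 in untreated liver).

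The mu class, the largest with 7 genes in 1 cluster on chromosome 3, was divided. Gstm2 rose, with signals of 1258, 1616, 1490, 1233 and 1038 in STZ liver, against 844, 912, 890, 761 and 649 in untreated liver. Its groups did not overlap (0.69 ± 0.12, adjusted p = 0.000579). Gstm6 fell, and averaged 837 ± 263 in STZ liver and 1355 ± 211 in untreated liver (−0.73 ± 0.23, adjusted p = 0.0377), and here the groups overlapped, STZ replicate 1 being at 1223. The call was lost when untreated replicate 1, 2, 3 or 4, or STZ replicate 2, 3, 4 or 5, was left out. Gstm1, an abundant enzyme of mouse liver, averaged 5999 ± 556 in STZ liver and 6165 ± 142 in untreated liver, and its interval was −0.24 to 0.15. Gstm3, Gstm4, Gstm5 and Gstm7 had differences of 0.10, −0.22, 0.05 and −0.15 and were not called. The probe sets of Gstm1 and Gstm3 carry suffixes that mark possible cross-hybridisation with related sequences, so these near-identical paralogs may share signal.

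In the pi class, Gstp1, a major glutathione transferase of mouse liver, had signals of 12863, 7626, 8127, 9950 and 8466 in STZ liver, against 12841, 12272, 12908, 11879 and 14513 in untreated liver. STZ replicate 1 was at the untreated level and the other 4 STZ arrays were below all untreated arrays. Gstp1 was called lower (−0.48 ± 0.15, adjusted p = 0.0416), a difference of −0.60 without STZ replicate 1. With quantile normalization it was −0.30 and not called (adjusted p = 0.0706). The call was lost when any 1 untreated array, or any 1 of STZ replicates 2 to 5, was left out. Gstp3 averaged 435 ± 82.8 in STZ liver and 431 ± 40.1 in untreated liver, with an interval of −0.33 to 0.33.

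**Figure D2:**
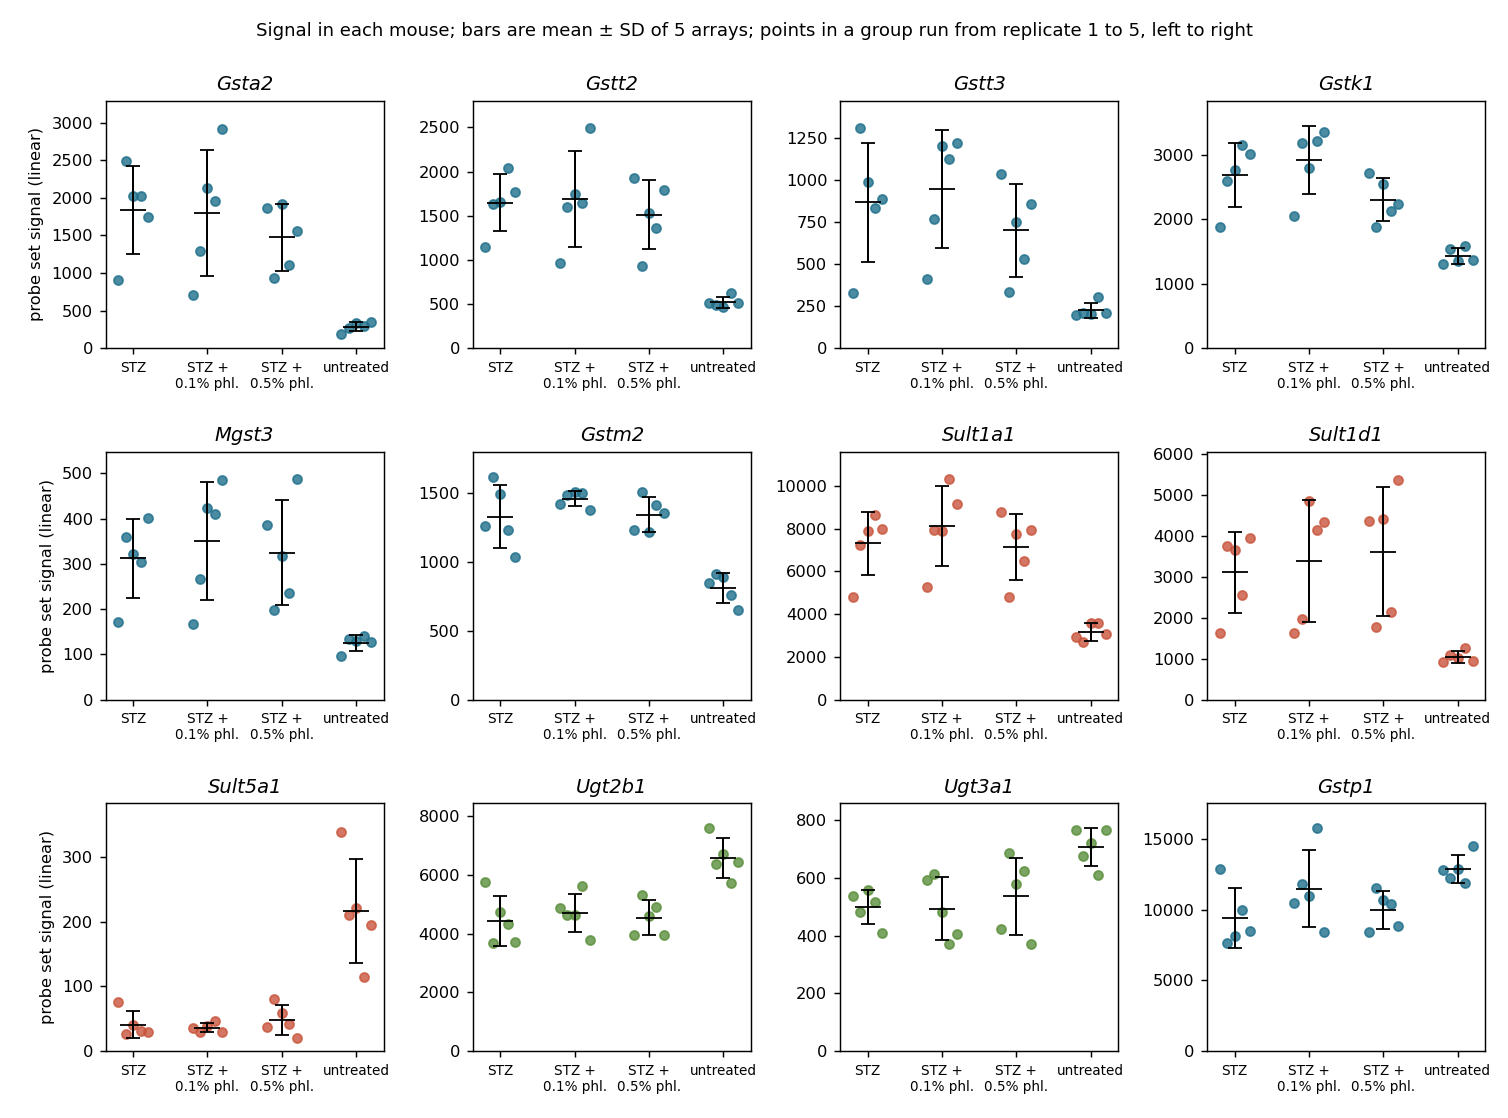
Linear probe set signal (vertical, from 0) in each mouse of the STZ, STZ plus 0.1% phloridzin, STZ plus 0.5% phloridzin and untreated groups for 12 genes. Dots are arrays and black bars the mean ± SD of 5 arrays. All STZ arrays of Gsta2 (909 to 2485) lie above the untreated ones (191 to 345), and all STZ arrays of Sult5a1 (26.0 to 76.2) lie below them (114 to 338).

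Among sulfotransferases, 2 enzymes of the phenol family rose clearly. Sult1a1, which sulfates phenols and many drugs, had signals of 4787, 7237, 7869, 8634 and 7986 in STZ liver, against 2917, 2669, 3597, 3566 and 3067 in untreated liver. The groups did not overlap and the fold was 2.27 (1.18 ± 0.19, adjusted p = 0.000313). Sult1d1, which sulfates catecholamines in mice and is a pseudogene in humans, had signals of 1620, 3746, 3646, 2544 and 3955 in STZ liver, against 909, 1094, 1019, 1269 and 935 in untreated liver. It was 2.81-fold higher (1.49 ± 0.33, adjusted p = 0.00519), and a second probe set gave 1.56 log2 units, also without overlap. Its neighbour Sult1b1, which sulfates thyroid hormones, averaged 352 ± 92.7 in STZ liver and 259 ± 31.5 in untreated liver and was not called (0.39, interval 0.07 to 0.71, adjusted p = 0.0982). Sult1c2 had a difference of −0.15 and was not called.

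Sult5a1 fell furthest of the 36 genes. It had signals of 76.2, 26.0, 39.6, 30.6 and 30.0 in STZ liver, against 338, 211, 221, 114 and 195 in untreated liver. The highest STZ array, replicate 1, was below the lowest untreated array. The signal was 4.08-fold lower in STZ liver (−2.03 ± 0.26, adjusted p = 3.24e-05), and 4.67-fold lower without STZ replicate 1. The Sult2a family acts on steroids and bile acids. Sult2a2 had signals of 14.7, 37.2, 15.3, 21.0 and 22.7 in STZ liver, against 8.30, 5.24, 11.5, 0.164 and 6.06 in untreated liver. It was not above background in untreated liver, so no fold is given. Its limma adjusted p was 0.0066, for a call that had to be a rise. Sult2a8 averaged 4979 ± 1162 in STZ liver and 7036 ± 452 in untreated liver. Its arrays did not overlap, yet it was not called (−0.53 ± 0.19, adjusted p = 0.0676). Without STZ replicate 1 it was called, at −0.63 (adjusted p = 0.0344).

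Differences of the 9 UDP-glucuronosyltransferases, which include no Ugt1 gene, lay between −0.58 and 0.10 log2 units. The Ugt2b enzymes, which glucuronidate steroids, bile acids and drugs, lie with Ugt2a3 in 1 cluster on chromosome 5. Ugt2b1 fell, with signals of 5748, 3672, 4726, 4335 and 3712 in STZ liver, against 7617, 6366, 6733, 5743 and 6446 in untreated liver. STZ replicate 1 reached the lowest untreated array and the other STZ arrays were below it (−0.58 ± 0.13, adjusted p = 0.00586). Its cluster neighbours Ugt2b34, Ugt2b35, Ugt2b36, Ugt2b5, Ugt2b37 and Ugt2a3 had differences between −0.28 and 0.10 and were not called. The intervals of Ugt2b36 and Ugt2b5 were −0.31 to 0.27 and −0.31 to 0.11. Ugt3a1, whose human counterpart uses UDP-N-acetylglucosamine in place of UDP-glucuronate, had signals of 537, 480, 558, 517 and 408 in STZ liver, against 767, 676, 720, 611 and 767 in untreated liver. Its groups did not overlap (−0.49 ± 0.16, adjusted p = 0.0458). A second probe set of Ugt3a1 gave −0.36 with overlap, and with the mean of both the gene was not called (adjusted p = 0.0681). The call was also lost when untreated replicate 1, 2, 3 or 5, or STZ replicate 2, 3, 4 or 5, was left out. Ugt3a2, next to it, had a difference of −0.11.

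The size of the response differed among STZ mice in the same way for most risen genes. STZ replicate 1 was the lowest STZ array for 10 of the 11 risen genes and the closest to untreated liver for 4 of the 5 fallen ones. Replicate 1 of the 0.1% phloridzin group was the lowest of its group for 9 of the 11, and replicate 2 of the 0.5% group for 10 of the 11. Among the 5 fallen genes, the 0.1% array closest to untreated liver was replicate 4 for 3 genes and replicate 1 for 1, and the 0.5% array was replicate 2 for 4. Such counts were not made over all called genes, so they do not mark a trait of these enzymes. Without STZ replicate 1, 11 genes were called higher and 6 lower. Over all 12947 genes, 959 were then called higher and 1032 lower, against 893 and 892 with it.

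**Figure D3:**
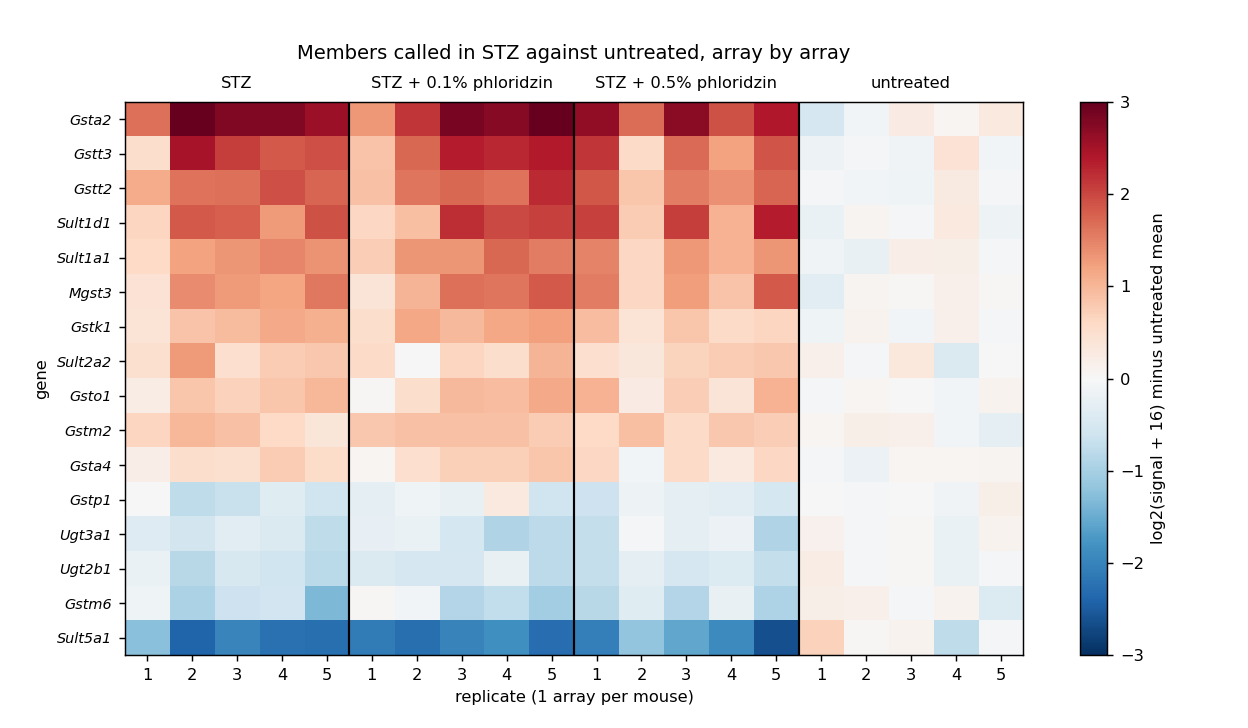
Level of the 16 genes called in STZ against untreated liver (rows) on each of 20 arrays (columns, by group and replicate), as log2 of signal plus 16 minus the untreated mean, with colours ending at −3 and 3. STZ replicate 1, 0.1% phloridzin replicate 1 and 0.5% phloridzin replicate 2 are paler than the rest of their groups for most risen genes.

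The phloridzin groups against STZ ask whether the diet moved these enzymes in diabetic liver. At 0.1% phloridzin, 0 of 36 genes were called, as were 0 of all genes (0%), and at 0.5% phloridzin likewise 0 of 36 and 0 of all (0%). At an unadjusted p under 0.05 there were 4 of 36 genes at 0.1%, against 5.29% of all genes, and 1 of 36 at 0.5%, against 4.8%. Genes whose groups did not overlap numbered 0 of 36 at either dose, against 0.68% of all genes at 0.1% and 0.842% at 0.5%. The median difference was 0.05 log2 units at 0.1% and 0.03 at 0.5%, and the median 95% interval ran 0.32 to each side of its estimate. No interval of the 36 genes reached beyond 0.85 log2 units from 0 at 0.1%, or beyond 0.98 at 0.5%. These limits do not show that the groups were alike.

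The genes with the largest differences under STZ were among those not called here. Gsta2 averaged 1801 ± 840 with 0.1% phloridzin, 1476 ± 445 with 0.5% phloridzin and 1837 ± 582 in STZ liver. Its differences from STZ were −0.10 (interval −0.76 to 0.55) and −0.29 (interval −0.95 to 0.36). Gstt2 differed by 0.00 (interval −0.44 to 0.44) at 0.1% and by −0.14 (interval −0.58 to 0.29) at 0.5%. Sult1a1 averaged 8112 ± 1882 at 0.1%, 7158 ± 1546 at 0.5% and 7303 ± 1491 in STZ liver, with intervals of −0.24 to 0.53 and −0.42 to 0.36. Sult5a1 averaged 35.9 ± 7.0 at 0.1%, 47.5 ± 23.1 at 0.5% and 40.5 ± 20.6 in STZ liver, and its highest array at either dose, 80.4, was below the lowest untreated array, 114.

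The smallest p values belonged to genes that were not called in STZ against untreated liver. With 0.1% phloridzin Gstm1 had signals of 6927, 8077, 7344, 9102 and 6219, against 6374, 5269, 5821, 6706 and 5824 in STZ liver. The ranges overlapped, and the difference was 0.32 (interval 0.12 to 0.52, adjusted p = 0.921). Gstt1 had signals of 3154, 3449, 3847, 4284 and 3631 with 0.1% phloridzin, against 2873, 3022, 3005, 3270 and 3332 in STZ liver (0.24, interval 0.05 to 0.43, adjusted p = 0.921). The others under an unadjusted 0.05 were Mgst1 (0.43) and Ugt2b36 (0.30). In all 4 genes the highest array was 0.1% phloridzin replicate 4. Hepatocyte marker sums reached 148053 in the 0.1% group, against at most 75997 in STZ liver, and their part in these differences was not tested. Without replicate 4 the differences were 0.25 for Gstm1, 0.18 for Gstt1, 0.21 for Mgst1 and 0.19 for Ugt2b36. With quantile normalization those of Gstm1 and Gstt1 were 0.14 and 0.16. With 0.5% phloridzin, Gstm3 had signals of 324, 480, 219, 344 and 285, against 264, 283, 197, 277 and 149 in STZ liver (0.46, interval 0.04 to 0.89, adjusted p = 0.996). Gstm1 was next, with signals of 6964, 6632, 6473, 6824 and 7119 at 0.5% (0.19, interval −0.01 to 0.38, adjusted p = 0.996), and its difference was 0.33 with the mean of probe sets. Both of these mu genes overlapped with the STZ arrays.

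**Figure D4:**
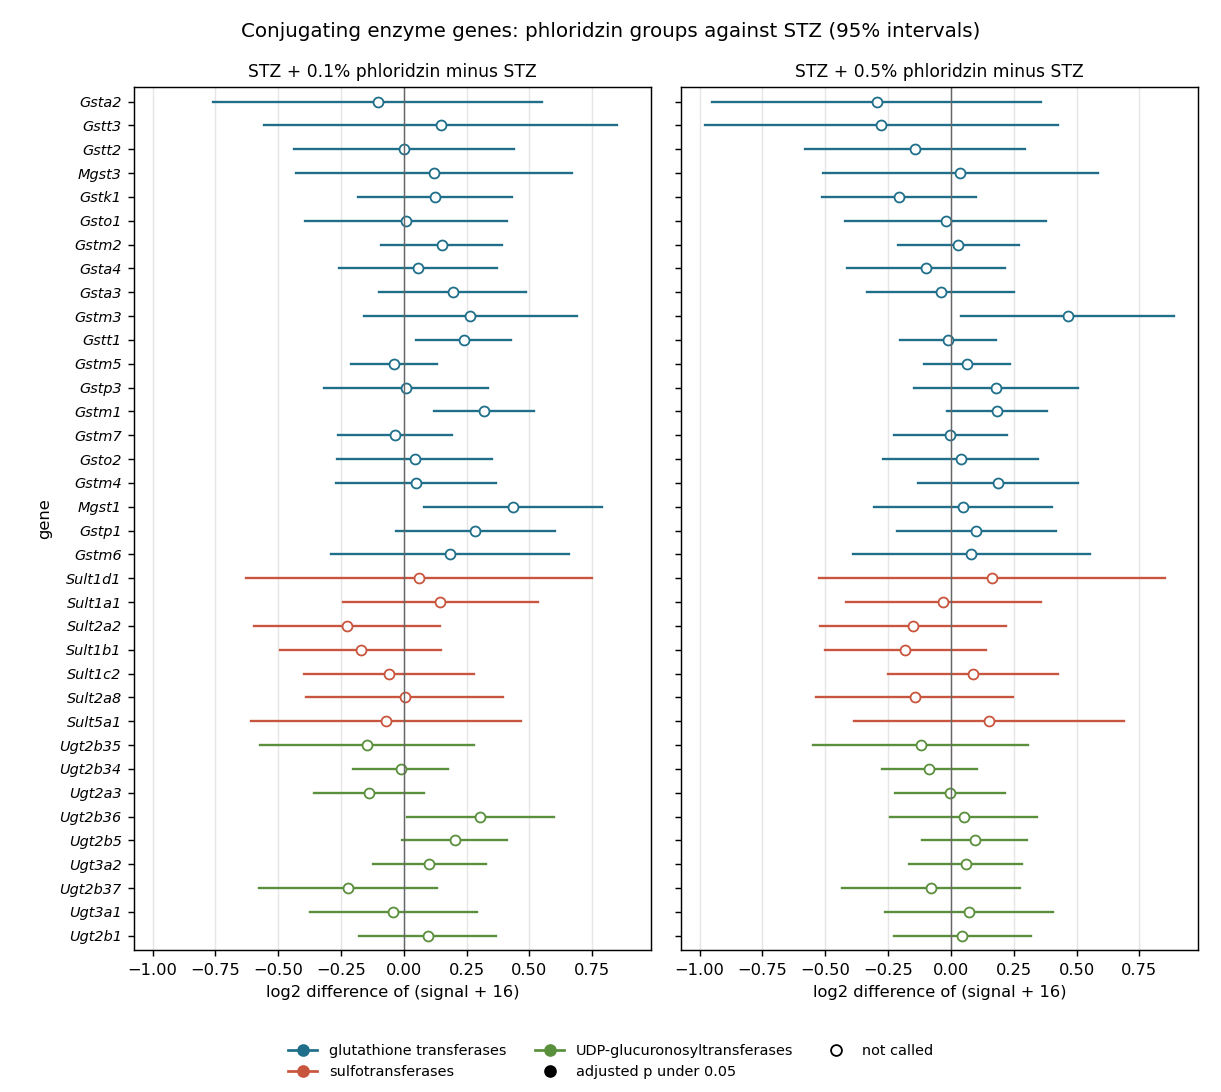
Difference of each of the 36 genes in log2 units of signal plus 16 (horizontal) for STZ plus 0.1% phloridzin and STZ plus 0.5% phloridzin, each minus STZ. Points are limma estimates and lines 95% intervals, and every point is open because 0 genes were called. The estimates lie between −0.23 and 0.43 at 0.1% and between −0.29 and 0.46 at 0.5%.

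Between the doses, 0.5% against 0.1% phloridzin, 0 of 36 genes were called (0% of all genes), and 3 had an unadjusted p under 0.05, against 6.49% of all genes. For 0 of 36 the doses did not overlap, against 0.803% of all genes. Gstt1 had signals of 3098, 2801, 3033, 3085 and 3368 at 0.5%, against the 3154 to 4284 at 0.1% given above (−0.25, interval −0.44 to −0.06, adjusted p = 0.753). Mgst1 had signals of 11928, 12475, 10844, 10950 and 10897 at 0.5%, against 12377, 15223, 12936, 27378 and 11014 at 0.1% (−0.39, interval −0.74 to −0.03, adjusted p = 0.753). The array at 27378 is replicate 4, and without it the Mgst1 difference was −0.17. It was −0.11 with the mean of probe sets and −0.02 with quantile normalization. For Gstt1 quantile normalization gave −0.16. The third was Gstk1 (−0.33, adjusted p = 0.753).

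The diabetic mice on phloridzin were also set against untreated mice, which are the same 5 arrays as in the first comparison, so these results are not independent of it. With 0.1% phloridzin 13 of 36 genes were higher and 4 lower, against 7.76% and 8.98% of all genes (16.7% in all). Of the 36, 20 had an unadjusted p under 0.05, against 30.8%, and 12 did not overlap, against 13.2%. In the same comparison 2 of 7 hepatocyte markers were called higher, with a list median of 0.24, and their part in these counts was not tested. With 0.5% phloridzin 10 were higher and 3 lower, against 6.53% and 6.18% (12.7% in all). Of the 36, 19 had an unadjusted p under 0.05, against 27.2%, and 16 did not overlap, against 11.1%. Sult2a2 is among the higher genes at both doses. It passed the filter through its diabetic groups, so its calls had to be rises. At 0.1% its call was lost with no filter and with only the groups compared. It was also lost without untreated replicate 1, 2, 4 or 5 or 0.1% phloridzin replicate 1, 3, 4 or 5 (limma adjusted p up to 0.124). At 0.5% it was lost without untreated replicate 2 or 4 or 0.5% phloridzin replicate 3 or 5 (limma adjusted p up to 0.0745). Gsta2 was 5.53-fold higher at 0.1% and 4.84-fold at 0.5%, Sult1d1 2.94-fold and 3.15-fold, and Sult5a1 4.28-fold and 3.67-fold lower. Gsta3 (0.45, adjusted p = 0.0331), Gstt1 (0.32, adjusted p = 0.0204) and Ugt2b37 (−0.51, adjusted p = 0.045) were called at 0.1% and not in STZ alone or at 0.5%. Without 0.1% phloridzin replicate 4 the calls of Gsta3, Gstt1 and Ugt2b37 were all lost (adjusted p = 0.0968, 0.0616 and 0.0582). Their differences without it were 0.31, 0.26 and −0.54. Over all genes, calls also fell without it, from 1005 to 773 higher and from 1163 to 891 lower. Gsta3 was also lost with quantile normalization, with the mean of probe sets, with only the groups compared and without any of 4 other arrays. Gstt1 was lost with only the groups compared and without untreated replicate 1 or 2. Ugt2b37 was lost under 5 other settings and without any of 7 other arrays. Sult2a8 (−0.67, adjusted p = 0.0239) was called at 0.5% and in neither other group. Its call was lost without untreated replicate 5 or 0.5% phloridzin replicate 1 or 5 (adjusted p up to 0.0812). Gstm6 and Gstp1 were not called at either dose, and Gsta4 and Ugt3a1 not at 0.5%. The differences between these diabetic groups are the phloridzin comparisons above, in which 0 of the 36 genes were called.

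Genes around conjugation, its supply, export and control, were read from lists, again for STZ against untreated liver, where 13.8% of all genes were called. On the list around UDP-glucuronate, which mixes genes that make and break down its precursor, 3 of 10 genes rose and 0 fell, with a median of 0.22. Ugp2, which makes UDP-glucose, averaged 5635 ± 595 in STZ liver and 4255 ± 212 in untreated liver (1.32-fold, adjusted p = 0.0115). Pgm1 was 1.34-fold higher, and Nudt14, which breaks UDP-glucose down, was 1.31-fold higher. Ugdh, which oxidises UDP-glucose to UDP-glucuronate, was not called (0.28, adjusted p = 0.186). For the sulfate donor, 1 of 8 rose and 0 fell, with a median of −0.13. That gene was Papss2, the PAPS synthase, at 1534 ± 199 in STZ liver and 800.2 ± 40.5 in untreated liver (1.89-fold, adjusted p = 0.000214).

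For glutathione synthesis and turnover, 4 of 15 genes rose and 3 fell, with a median of 0.20. Gclc, the catalytic subunit of the rate-limiting step, averaged 1466 ± 474 in STZ liver and 2695 ± 536 in untreated liver (1.86-fold lower, adjusted p = 0.0237, with overlap). Gss, the next step, averaged 543 ± 42.7 in STZ liver and 351 ± 19.4 in untreated liver (1.52-fold, adjusted p = 7.64e-05). Cth, which makes cysteine, Oplah, which recovers glutamate from 5-oxoproline, and Ggt6 were 1.80-fold, 1.87-fold and 1.90-fold higher. Chac1 and Ggct, which break glutathione or its products down, were 1.90-fold and 1.68-fold lower.

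Transporters of conjugates moved both ways, with 3 of 15 higher and 4 lower. Slco1a4, an organic anion carrier, averaged 1185 ± 527 in STZ liver and 99.6 ± 47.7 in untreated liver (9.77-fold). Abcc3, which exports glucuronides to the blood, was 2.41-fold higher (adjusted p = 0.0082), with overlapping groups. Abcb1a had a signal of 79.8 ± 18.0 in STZ liver against 16.3 ± 5.47 in untreated liver, where it was not above background. Slc22a7, Abcg2, Abcb11 and Slco1b2 were 3.23-fold, 2.11-fold, 1.44-fold and 1.23-fold lower. Abcc2, the canalicular exporter of conjugates, was not called (0.14). Of 10 enzymes that undo or finish conjugates, the aminoacylase Acy1 rose 2.14-fold and the cysteine conjugate acetyltransferase Nat8 fell 1.89-fold.

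Regulators of drug metabolism were higher in 6 of 15 cases and lower in 0, with a median of 0.46. The receptor genes Nr1i3 (CAR), Nr1i2 (PXR) and Ahr were 1.80-fold, 1.59-fold and 1.42-fold higher. Nfe2l2, which encodes NRF2, was 1.38-fold higher. Bach1, a repressor of NRF2 target genes, and Mafk, a partner of NRF2, were 1.67-fold and 1.86-fold higher. Of 12 marker genes of NRF2 activity, 4 rose and 2 fell. Ephx1 averaged 3935 ± 385 in STZ liver and 1646 ± 150 in untreated liver (2.38-fold, adjusted p = 1.24e-07), and Cbr1, Txnrd1 and Nqo1 were 3.41-fold, 1.45-fold and 2.02-fold higher. Gclc and Osgin1, both on this list, fell. A list of 15 further genes, of methyl, acyl and glutathione conjugation and of eicosanoid synthesis, had 4 that rose and 0 that fell. These were the methyltransferases Nnmt, As3mt and Tpmt, and Alox5ap, which encodes the activating protein of arachidonate lipoxygenase. In the comparisons of phloridzin with STZ, 0 genes of these lists were called.

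**Figure D5:**
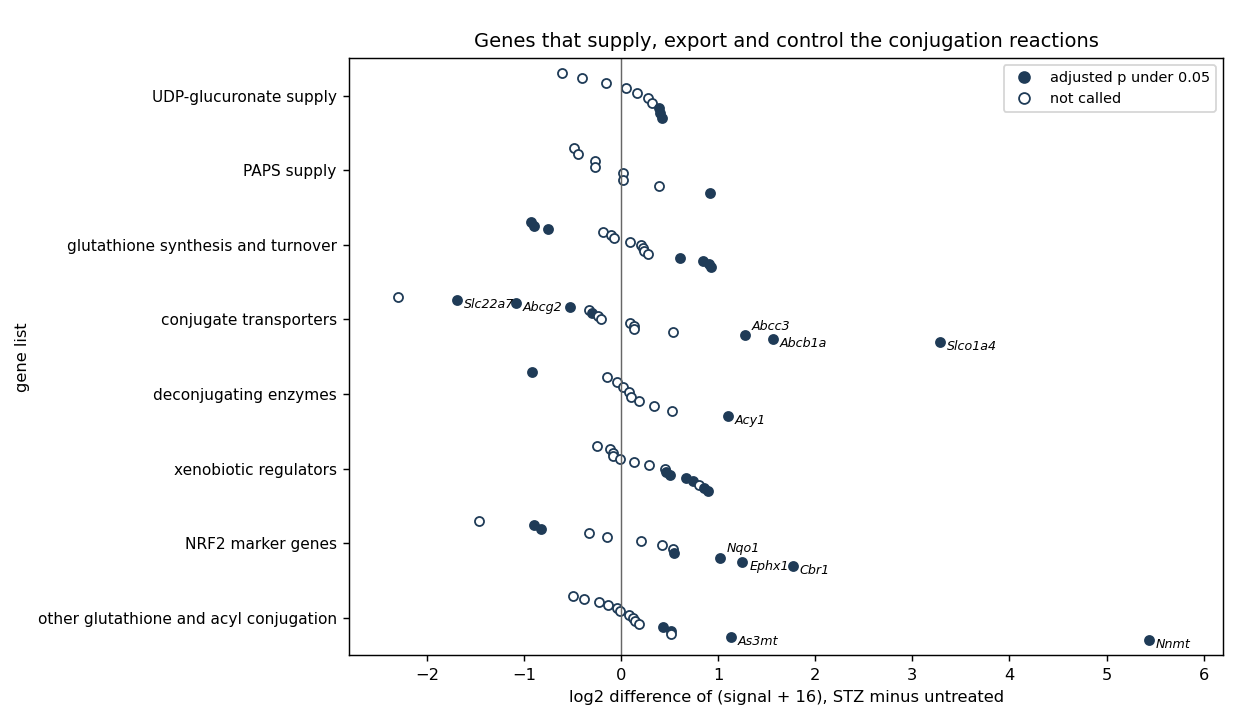
Difference in log2 units of signal plus 16, STZ minus untreated liver (horizontal), for each gene of 8 lists around conjugation (rows). Filled points have an adjusted p under 0.05, and names are given for called genes beyond 1 log2 unit. The xenobiotic regulators have 6 filled points, all right of 0, and the transporters 3 right and 4 left.

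Markers of other cell types differed between the same groups. Of 5 B and plasma cell markers 2 were lower in STZ liver, and the sum of the list was 97.1 to 167 in STZ liver and 379 to 511 in untreated liver, with Cd79a and Ms4a1 not above background in either. Of 9 stellate cell and fibroblast markers 4 were lower, with sums of 2579 to 3618 in STZ liver and 3280 to 4530 in untreated liver. Cd5l among 8 macrophage markers and Lyve1 among 7 endothelial markers were higher. Alas2 of the erythroid list was lower, with sums of 202 to 1374 in STZ liver and 1280 to 1466 in untreated liver. Cela1 of the acinar pancreas list was lower, with sums of 393 to 890 in STZ liver and 1463 to 1923 in untreated liver, and the other 3 markers of that list were at background. Sox9 and Gzma, from the cholangiocyte and the T and NK cell lists, were lower, and 0 neutrophil or kidney markers were called. Hepatocyte marker sums were 56046 to 75997 in STZ liver and 71319 to 78342 in untreated liver. The part of these shifts in the differences of the conjugating enzymes was not tested.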

How the data were processed

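Liver RNA of 20 mice was hybridised to Affymetrix mouse arrays. The deposited values are intensity values, a linear signal per probe set, scaled by the authors so that the mean without the lowest and highest 2% was 100 on each array. Their software was not given in the sources used here. From 45101 probe sets, 64 controls, 9160 with no gene and 932 with several genes were left out. Signals were taken as log2 of signal plus 16, each gene by its brightest probe set, and 12947 genes whose mean reached the 40th percentile, equal to a signal of 8.48, were kept. The 4 groups were fitted jointly in limma 3.58.1 (R 4.3.3), two-sided, with Benjamini-Hochberg adjustment over all genes, and tested on simulated data. Replicates are separate mice, and having 5 arrays a group limits the precision.

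The genes and lists were chosen with earlier results of these data known. Array values are given in full for genes called in STZ against untreated liver without overlap, up to 8 higher and 8 lower by size, and for the 2 smallest p values where a comparison called no gene. Further values are of called genes and of members that complete a class. Quantile normalization, centring, other filters, the mean of probe sets, array weights, a trended robust prior, fits of the groups compared alone, a pseudocount of 1, a replicate block and leaving out each array were tried.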

Additional observations from a re-analysis of the deposited data

Results flagged for a closer look

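One array lay away from the other 4 in 5 of 144 groups examined, where chance gives about 1 in 20, or 7.2. All 5 were untreated arrays, and for the 36 untreated groups chance gives 1.8. Gstt2 had a signal of 626 on untreated replicate 4, against 470 to 509 on the others, and Gstt3 had 303 on the same array, against 197 to 211. Mgst1 had 14739 on untreated replicate 5, against 12817 to 13012, and Ugt2b35 had 2226 on that array, against 1807 to 1881. Mgst3 had 95.8 on untreated replicate 1, against 127 to 140.

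Probe sets that match several genes were left out of the comparisons, and 4 of the 5 among them gave a mean in STZ liver above the range in untreated liver. Of these 4, all except that of Gsta1, Gsta2 and Gm3776 match the same 8 Ugt1a genes. The share of all probe sets with such a mean was not counted, so the 4 cannot be set against it. The probe set of Gsta1, Gsta2 and Gm3776 averaged 1300 in STZ liver, against 177 to 290 on untreated arrays (exact permutation test, two-sided, p = 0.0198 adjusted over the 5 probe sets). A probe set common to 8 Ugt1a genes averaged 4943 in STZ liver, against 3820 to 4226 on untreated arrays (exact permutation test, adjusted p = 0.0198). Another probe set of these genes averaged 5579 in STZ liver, against 4087 to 5061 on untreated arrays, with overlap of single arrays (exact permutation test, adjusted p = 0.0265). The remaining Ugt1a probe set averaged 8933 in STZ liver, against 7886 to 8602 on untreated arrays, a difference that did not pass (exact permutation test, adjusted p = 0.238). Which of the 8 genes gave the signal cannot be read from such probe sets.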

How the results depend on the processing

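The count of 11 genes higher in STZ liver was 9 to 11 over the 10 other settings, lowest with the mean of probe sets, where Gsto1 and Mgst3 lost their call, and 10 to 11 without 1 array. Over all genes, 893 higher became 762 with the mean of probe sets and 606 to 959 without 1 array. The count of 5 lower fell to 2 with each array centred on its median, with no filter and with a pseudocount of 1. Over all genes, 892 lower became 509, 760 (of 18193 tested) and 757 in those settings. Gstm6, Gstp1 and Ugt3a1 were the conjugating enzyme genes lost under those settings, while in STZ against untreated liver Sult5a1 and Ugt2b1 were called under each alternative run. Without 1 array the 5 became 2 to 6: 2 or 3 without any untreated replicate or without STZ replicate 2, 3, 4 or 5, and 6 without STZ replicate 1. Over all genes, 565 to 756 were lower in the runs that gave 2 or 3, and 1032 without STZ replicate 1. For STZ plus 0.1% phloridzin against untreated, 13 higher became 10 to 13 and 4 lower became 1 to 5 without 1 array, with 2 lower without untreated replicate 1 or 3 or 0.1% phloridzin replicate 4, and 1 without replicate 5. Over all genes, 1005 higher became 720 to 1168 and 1163 lower became 772 to 1452 without 1 array. For STZ plus 0.5% phloridzin, 10 higher became 8 to 11 and 3 lower became 2 to 5, with 5 lower with array weights, with only the groups compared, and without 0.5% phloridzin replicate 2. Over all genes, 846 higher became 541 to 1083 and 800 lower became 401 to 1105 without 1 array. Lower genes numbered 1333 over all genes with array weights and 798 with only the groups compared. All comparisons of phloridzin with STZ and of the doses called 0 of the 36 genes under every alternative. Single-gene values were followed under the alternatives for the genes called in a comparison or, where none was called, for the 2 smallest p values. Of these values, 935 kept their side of the threshold, 102 lost their call and 0 turned direction. Calls gained by other genes, such as Sult2a8 in STZ liver without STZ replicate 1, are not in this count. The cause of the lost calls was not tested. Genes near background, such as Sult2a2 and Gsto2, are limited by signal.

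With the replicate number as a block, 11 genes were higher and 4 lower in STZ liver, Gstp1 losing its call (adjusted p = 0.0515). At 0.1% phloridzin 13 were higher and 4 lower, where Ugt2b37 lost its call (adjusted p = 0.0512), and at 0.5% 11 and 4. Over all genes, the block gave 958 higher and 965 lower in STZ liver, 1110 and 1258 at 0.1%, and 958 and 898 at 0.5%. The labels tie the numbers to no shared litter, batch or day, so the arrays were not taken as paired. Deviations from the group means correlated between −0.41 and 0.50 for same-numbered pairs of arrays. Of these 30 pairs 13 were above 0.1, against 31 of 120 others. Each array's correlations with the other groups were averaged by replicate number. For 10 of 20 arrays the own number had the highest mean, where chance gives 4. These values cannot decide whether same-numbered arrays share a factor.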

Other observations

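With 0.1% phloridzin the 3 Ugt1a probe sets averaged 6011 ± 1416, 11584 ± 3387 and 6800 ± 1227 (SD). With 0.5% phloridzin they averaged 5099 ± 503, 8892 ± 460 and 5745 ± 400. Their differences from STZ liver, and the part of 0.1% phloridzin replicate 4 in them, were not tested. The probe set of Ugt2a1 and Ugt2a2 was not above background in STZ liver (10.3) or untreated liver (13.9).

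A second Gsta3 probe set averaged 1452 ± 204 in STZ liver and 1093 ± 106 in untreated liver, a difference of 0.40, against 0.25 for the brighter one. A second Gstm3 probe set averaged 99.8 ± 26.0 in STZ liver and 64.7 ± 13.0 in untreated liver, a difference of 0.51, against 0.10 for the brighter one.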
